A study of Mus musculus with 2 samples.

Results

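The 10 genes described here encode enzymes of glycolysis and lactate production: Hk2, Gpi1, Aldoa, Tpi1, Gapdh, Pgk1, Pgam1, Eno1, Pkm and Ldha. They were taken by symbol, with no threshold on their values, from a table of 23924 gene symbols, and their 16 transcript rows were summed per gene. The values are FPKM, fragment counts scaled by transcript length and library size, in 2 libraries of immunoprecipitated nuclear RNA from RAW 264.7, a mouse macrophage cell line. In both libraries the cells were depleted of mRrp6, the ribonuclease of the nuclear exosome encoded by Exosc10, and had received LPS, a bacterial cell wall component, at 80 ng/ml for 12 h. The control library was precipitated with IgG and the other with an antibody against nucleolin, a nucleolar RNA-binding protein, to find the transcripts that nucleolin binds. How mRrp6 was depleted is not given in the sources used here, and libraries of unstimulated cells, of cells with mRrp6 or of input RNA were not analysed here. Each group was 1 library, so nothing measures the spread between replicates, no test between the groups was made, and every difference below describes these 2 libraries.

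Glycolysis converts glucose to pyruvate in the cytosol, with a net gain of ATP and NADH. Lactate dehydrogenase then reduces pyruvate to lactate, which regenerates the NAD that glyceraldehyde-3-phosphate dehydrogenase consumes. Macrophages stimulated with LPS are known for raised glucose uptake and lactate release, driven in part by the hypoxia-inducible factor HIF-1, which binds a short core sequence near many glycolytic genes. Messenger RNAs of these enzymes are abundant in most cells and are found in the nucleus on their way to export.

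On mm10 (RefSeq annotation of GRCm38.p6) 3 of the genes lie on chromosome 6 and 3 on chromosome 7. Hk2 (gene identifier 15277) spans chr6:82725025-82774454, Tpi1 (21991) chr6:124810586-124814158 and Gapdh (14433) chr6:125161852-125166467, the last pair 347694 bases apart. Gpi1 (14751) spans chr7:34201327-34230336, Ldha (16828) chr7:46842274-46855627 and Aldoa (11674) chr7:126795234-126800994. The others are Eno1 (13806) at chr4:150236708-150248879, Pkm (18746) at chr9:59656576-59679372, Pgam1 (18648) at chr19:41911871-41918665 and Pgk1 (18655) at chrX:106187100-106203699.

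All 10 genes matched the RefSeq promoter table, which holds 16 windows for them, each of 300 bases from 250 before to 50 after a transcript start. The letters ACGTG, the usual core of a HIF-1 site, were searched on both strands. They stood in at least 1 window of 7 of the 10 genes (8 of 16 windows), against 21.8% of 27025 genes and 19.6% of all windows. Windows of a gene can overlap, and the Aldoa windows with a match hold the same site, so the window count is not one of separate sites. Gpi1, Tpi1 and Eno1 had no match. The GC box letters GGGCGG, also on both strands, stood in a window of 9 of the 10 genes, against 38.2% of all genes. The member windows held a median of 65.0% G and C, against 52.7% over all windows, and genes with several windows had more chances of a match. These letters describe the reference sequence; neither library measured binding at a promoter. The windows of the 4 genes whose library ratio departed from that of most other members (below) are shown 5′ to 3′ on the strand of the gene, with ACGTG or its complement CACGT in capitals. Where Ldha or Pkm has more than 1 window, the one with matches is given.
Ldha, chr7:46845554-46845853, + strand: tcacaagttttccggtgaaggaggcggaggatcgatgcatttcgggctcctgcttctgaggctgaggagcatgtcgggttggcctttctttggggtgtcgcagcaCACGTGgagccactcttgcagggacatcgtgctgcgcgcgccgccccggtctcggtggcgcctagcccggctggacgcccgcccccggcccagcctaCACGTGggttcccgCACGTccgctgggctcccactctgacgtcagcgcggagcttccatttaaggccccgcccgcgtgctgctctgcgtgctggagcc
Hk2, chr6:82774405-82774704, - strand: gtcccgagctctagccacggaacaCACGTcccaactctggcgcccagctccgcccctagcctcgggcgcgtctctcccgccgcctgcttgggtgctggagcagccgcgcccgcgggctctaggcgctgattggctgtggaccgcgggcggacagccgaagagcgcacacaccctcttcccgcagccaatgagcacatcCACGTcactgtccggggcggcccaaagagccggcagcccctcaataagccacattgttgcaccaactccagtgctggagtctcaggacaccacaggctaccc
Pkm, chr9:59656977-59657276, + strand: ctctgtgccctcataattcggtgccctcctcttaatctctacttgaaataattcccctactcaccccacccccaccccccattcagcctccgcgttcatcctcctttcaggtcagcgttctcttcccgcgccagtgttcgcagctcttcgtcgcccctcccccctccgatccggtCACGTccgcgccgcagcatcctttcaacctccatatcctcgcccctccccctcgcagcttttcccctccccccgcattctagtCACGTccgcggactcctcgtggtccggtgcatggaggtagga
Gapdh, chr6:125165724-125166023, - strand: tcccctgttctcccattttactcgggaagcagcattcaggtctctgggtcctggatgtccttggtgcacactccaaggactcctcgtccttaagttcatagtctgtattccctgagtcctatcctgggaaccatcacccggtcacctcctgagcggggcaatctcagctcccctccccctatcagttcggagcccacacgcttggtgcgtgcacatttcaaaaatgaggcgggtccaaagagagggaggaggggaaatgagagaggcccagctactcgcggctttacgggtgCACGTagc
Ldha had the most matches, 5 counted over both strands. They include a pair of CACGTG palindromes, each counted once per strand, of which the first begins 145 bases and the second 48 bases before the transcript start. Hk2 had 2 matches, 226 and 52 bases before the start. Pkm also had 2, 1 of them 75 bases before the start and the other within the transcribed part. The single match of Gapdh lay in the transcribed part. The 4 genes shown all have the motif, and among them Gapdh and Hk2 had the highest and the lowest library ratio of the members. Gpi1 and Tpi1, without it, had the ratio of most other members, as did Aldoa, Pgk1 and Pgam1, which have it. Eno1 was not measured, and a link between motif and ratio was not tested.

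Both libraries were shallow. At 0.1 FPKM or more, 2009 genes were listed with IgG and 1729 with anti-nucleolin. Among genes of 1 transcript row with low values in both, 246 in number, 157 (63.8%) had a nucleolin-to-IgG FPKM ratio within 0.05 log2 units of 0.393. This most frequent ratio was taken as that of equal numbers of reads, most simply 1 read in each. On this reading 1 read was worth 2.54 times more FPKM with IgG. No read counts were available to check it, and every mention of equal reads or of matched reads rests on it. Equal reads therefore appear as a difference of -1.23 (median) in log2((nucleolin FPKM + 1) / (IgG FPKM + 1)), the scale used for the differences below, and this value, not 0, is where a gene with the same reads in both stands. Exosc10 itself read 0 FPKM with IgG and 6.42 FPKM with anti-nucleolin, which checks nothing because both came from depleted cells. All 9 gastric and digestive secretory markers listed (among them Pgc, Clps and Pla2g1b) were listed with IgG, at a sum of 20079 FPKM or 10.5% of that library, and all were at 0 with anti-nucleolin. So were 5 of 6 epithelial markers (Krt8, Krt18, Krt19, Krt14 and Cdh1), with a sum of 448 FPKM against 0. The marker lists were chosen with earlier results of these data known. Their counts therefore describe the libraries and are not a test of what they contain. Of 12 macrophage markers 10 were measured, with sums of 742 and 714 FPKM. Of these, 4 were 2-fold or more higher with anti-nucleolin and at or near 0 with IgG, 3 were 2-fold or more lower and 3 lay within 2-fold. Those counts are taken around equal FPKM. Centred on the median of all genes compared (-1.27), 5 were higher and 1 lower, against 1283 and 1485 of all 3194 genes compared. The macrophage product Lyz2 was at 0 and 199.6 FPKM, and Cd68, a lysosomal protein of macrophages, at 138 and 16.2 FPKM, while Cd14 (319 and 207 FPKM) and Fcer1g (92.8 and 116 FPKM) were within 2-fold. Both libraries are labelled as RAW 264.7 cells, and the source of the gastric, digestive and epithelial transcripts is not given. In libraries of precipitated RNA like these, a difference in cells, in RNA per cell or in RNA from another source cannot be told apart. Markers of other cell types thus differed between the libraries, and their part in the values of the glycolytic genes was not tested.

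Of the 10 glycolytic genes, 9 reached 1 FPKM in at least 1 library, and all 9 were listed in both. Among all 3194 genes that reached 1 FPKM, 16.8% were listed at 0.1 FPKM or more in both, and among those that reached 10 FPKM, as all 9 did, 22.3%. Several members lie far above that floor, and the share among genes of their own level was not computed. On the scale above, 1 of the 9, Gapdh, was 2-fold or more higher with anti-nucleolin, 6 were 2-fold or more lower and 2 lay within 2-fold. Over all genes compared 37.8% were higher and 56.7% lower. Over the 538 genes listed in both, 3.72% were higher and 63.6% lower, so a lower value was the common case there and a higher one was not. The members' median difference was -1.26, against -1.27 over all genes compared and -1.19 over genes in both. By the median alone the set stood near the background. Of all genes compared, 1470 were listed with IgG only and 1186 with anti-nucleolin only, so that median falls between 2 groups of genes. Other measures differed: all 9 members were listed in both libraries, and the log2 ratio of their sum, centred on the same median, was 1.19.

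**Figure D1:**
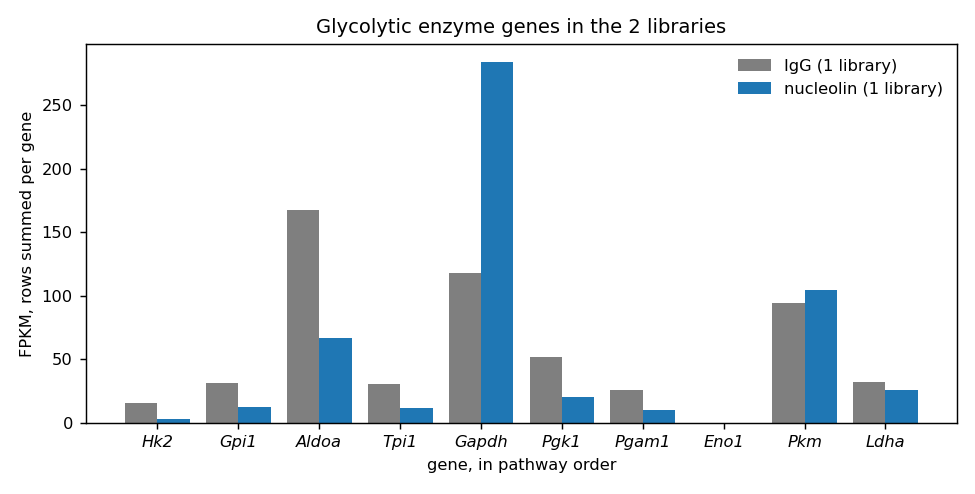
FPKM (vertical axis, linear, from 0) of each glycolytic enzyme gene in pathway order with IgG (grey) and with anti-nucleolin (blue), 1 library each, so there are no error bars. Gapdh is the tallest bar of the nucleolin library at 284 FPKM and Aldoa that of the IgG library at 168 FPKM; Eno1 is at or near 0 in both.

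The first step of the pathway had the lowest values among the measured members. Hk2 encodes hexokinase 2, the inducible enzyme that traps glucose in the cell as glucose 6-phosphate. It was at 15.9 FPKM with IgG and 3.11 FPKM with anti-nucleolin, a difference of -2.04 on the log2 scale and the lowest of the members. The FPKM ratio of 0.196 matched 2 IgG reads to 1 nucleolin read (or a multiple of this), with an exact 95% interval of the FPKM ratio from 0.00333 to 3.78. That interval, like those below, is the widest possible for the ratio and covers counting error only. It contains both equal FPKM and equal reads.

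Gpi1, Aldoa and Tpi1 act after hexokinase, on either side of the phosphofructokinase step. They encode glucose 6-phosphate isomerase, the aldolase that splits fructose 1,6-bisphosphate, and triosephosphate isomerase, which interconverts the resulting trioses. Gpi1 was at 31.5 FPKM with IgG and 12.4 FPKM with anti-nucleolin, and Tpi1 at 30.2 and 12.0 FPKM. Aldoa was at 168 and 66.9 FPKM, the highest member of the IgG library. Their differences were -1.28, -1.26 and -1.31, all at the ratio of equal reads. Aldoa has 3 transcript rows, of which 1 held 99.9% of the gene's FPKM in each library, so its ratio is in effect that of 1 transcript.

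The reactions that yield ATP and NADH begin with Gapdh, which encodes glyceraldehyde-3-phosphate dehydrogenase, an enzyme also known to bind RNA. Gapdh was at 118 FPKM with IgG and 284 FPKM with anti-nucleolin, 2.40 times higher there and a difference of 1.26. It was the 14th highest gene of the nucleolin library and the 133rd of the IgG library. Of the 538 genes listed in both libraries, 98.3% had a lower difference. The ratio matched 1 IgG read to 6 nucleolin reads, or a multiple. At exactly 1 and 6 reads the interval of the FPKM ratio ran from 0.286 to 109 and reached the ratio of equal reads. At a multiple it would be narrower and might not reach that ratio, and the read numbers of Gapdh are not known. Nearly all of the value (at least 99.98%) came from 1 of the 2 transcript rows.

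Pgk1 and Pgam1 encode phosphoglycerate kinase, which makes the first ATP of the payoff phase, and phosphoglycerate mutase. Pgk1 was at 52.1 FPKM with IgG and 20.6 FPKM with anti-nucleolin, a difference of -1.29, and Pgam1 at 25.9 and 10.3 FPKM, a difference of -1.26. Both lay at the ratio of equal reads. With Gpi1, Aldoa and Tpi1 this made 5 of the 9 measured genes, against 42.8% of all genes listed in both. The FPKM ratios of these 5 lay between 0.393 and 0.399, although their IgG levels ranged 6.47-fold. For each, the widest interval, at 1 read in each library, runs from 0.00501 to 30.9. The read numbers are not known, and for a gene with more reads in each library, as Aldoa may have, the interval would be narrower.

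Eno1, which encodes the enolase of most tissues, was the exception: its only row was at 0.0395 FPKM with IgG and 0 with anti-nucleolin, so it did not enter the comparison. Eno3, the muscle enolase, was at 33.0 FPKM with IgG and 0 with anti-nucleolin. The RefSeq table names 0 pseudogene or related copies under the symbol of Eno1, and 13 under those of other members, 3 each for Gapdh, Ldha and Pgk1 and 2 each for Aldoa and Pgam1. Only copies named by a member's symbol with a suffix were counted, so copies under other names were missed for any member, Eno1 included. How reads shared with such copies were assigned is not given in the sources used here, so the values of these 5 genes are uncertain.

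Pkm encodes the muscle and proliferating-cell pyruvate kinase, which makes pyruvate and the last ATP of the pathway. It was at 94.8 FPKM with IgG and 105 FPKM with anti-nucleolin, a difference of 0.14, higher than 86.1% of genes listed in both. No pair of up to 8 reads in all matched its ratio of 1.10. Pkm was the member whose FPKM was divided differently between its transcript rows in the 2 libraries. Its 2 rows each held 50% with IgG, at 47.4 FPKM each, while 1 of them, RefSeq transcript NM_011099, held 99.997% with anti-nucleolin, at 104.6 FPKM; the other is NM_001253883. The 2 IgG values were identical (47.3771 FPKM), and how reads were divided between rows is not given. A difference in transcript use is therefore not shown. Taken by its highest row in each library instead of the sum, Pkm was 2-fold higher with anti-nucleolin (1.13), a value that depends on this division. The descriptions of the rows in the table name no splice form.

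Ldha encodes the lactate dehydrogenase subunit that favours lactate formation. It was at 32.4 FPKM with IgG and 25.8 FPKM with anti-nucleolin, a difference of -0.32, 124th of the 538 genes listed in both. The FPKM ratio of 0.797 matched 1 IgG read to 2 nucleolin reads, with an interval from 0.0410 to 46.4. Of its 3 transcript rows, the one that held 99.9% in each library has a RefSeq accession of the non-coding type.

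**Figure D2:**
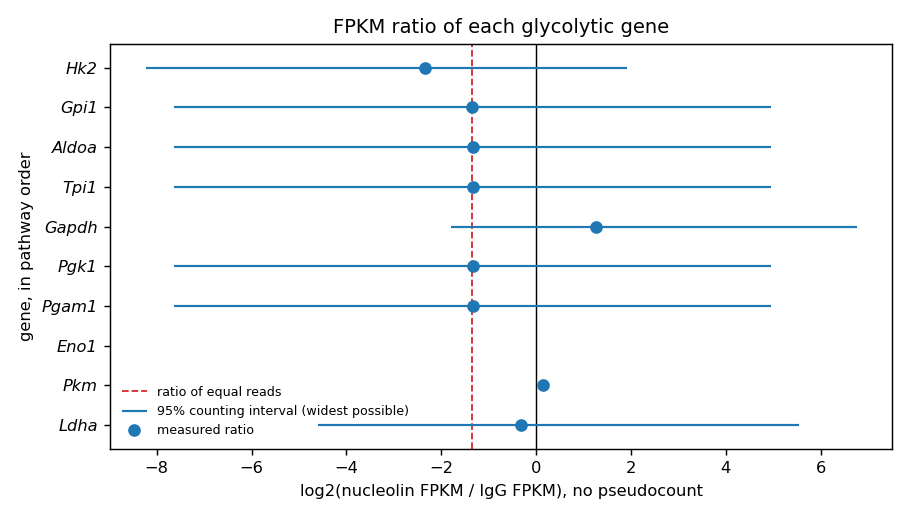
Ratio of nucleolin to IgG FPKM (horizontal axis, log2, no pseudocount) for each gene in pathway order, with the widest exact 95% counting interval where a pair of whole reads matched the ratio; the red dashed line is the ratio of equal reads. Gpi1, Aldoa, Tpi1, Pgk1 and Pgam1 sit on that line, Gapdh, Pkm and Ldha lie to its right and Hk2 to its left; Eno1 was not measured and Pkm has no interval.

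The members thus fell into 3 positions relative to equal reads: Gapdh, Pkm and Ldha above it, the 5 genes named above on it, and Hk2 below it. Of the 9 genes, 8 matched a ratio of at most 8 reads in all. The windows around such ratios cover 35.6% of the log2 range searched, so a match is weak evidence for a single gene. When the differences were centred on the median of all genes compared (-1.27), Gapdh stood at 2.52, Pkm at 1.41, Ldha at 0.95 and Hk2 at -0.77, and the other 5 between -0.05 and 0.01. On this centred scale 2 of the 9 were at least 2-fold higher and 0 lower, against 18.0% and 5.95% of genes listed in both; the direction of the 5 genes as deposited is therefore set by the scaling.

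**Figure D3:**
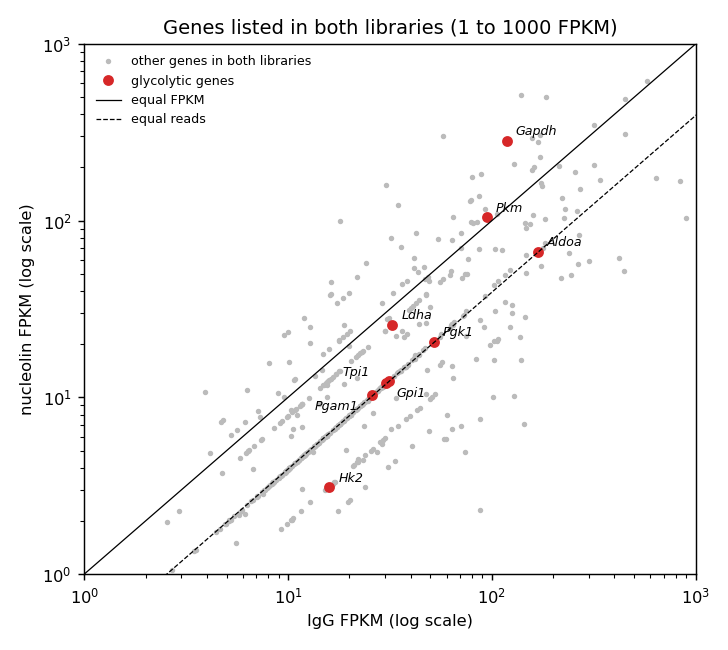
FPKM in the IgG (horizontal) and nucleolin (vertical) library, both on log axes from 1 to 1000, for genes listed in both; red points are the 9 measured glycolytic genes, grey points other genes, the solid line equal FPKM and the dashed line equal reads. Gapdh lies above the solid line, Pkm close to it, and Gpi1, Aldoa, Tpi1, Pgk1 and Pgam1 on the dashed line, where many other genes also lie.

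The order of levels was not the same in the libraries. In the IgG library it ran from Aldoa (168 FPKM) through Gapdh, Pkm, Pgk1, Ldha, Gpi1, Tpi1 and Pgam1 to Hk2 (15.9 FPKM), a 10.5-fold range. In the nucleolin library Gapdh (284 FPKM) and Pkm (105 FPKM) came before Aldoa (66.9 FPKM), Ldha before Pgk1, and Hk2 was again last (3.11 FPKM), a 91.3-fold range. With 1 library each, which neighbours in these orders differ beyond their spread cannot be told. Gapdh held 20.8% of the members' summed FPKM with IgG and 52.6% with anti-nucleolin, and Aldoa 29.5% and 12.4%. The sums were close, at 569 and 540.0 FPKM. They depended on single genes: without Gapdh they were 451 and 256 FPKM, a ratio of 0.568, and without Gapdh and Pkm 356 and 151 FPKM, a ratio of 0.425, near the 0.393 of equal reads. The members took 0.299% of all FPKM of the IgG library and 0.149% of the nucleolin library. Leaving out Rn45s, Lars2, Mir6236 and Mir142b, which dominate the totals, these shares were 0.583% and 1.50%.

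Among the genes most like Gapdh, by distance over the log2 levels of the 2 libraries, were 4 ribosomal protein genes. Rpl8 was at 128 FPKM with IgG and 209 FPKM with anti-nucleolin (distance 0.45), and was followed by Rps9 (169 and 280.2 FPKM), Rps26 (172 and 305 FPKM) and Rpl41 (171 and 228 FPKM). All 4 had a lower ratio than Gapdh. A likeness over 2 libraries describes levels only.

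The other enzymes of glycolysis were mostly found in 1 library, as were most genes compared. Of 20 genes for other isoenzymes and the phosphofructokinases, 9 were measured, 4 of them 2-fold or more higher with anti-nucleolin and 5 lower, and only Hk1 was listed in both. Over all genes compared, the shares to set beside this list and those below were 37.8% higher, 56.7% lower and 16.8% listed in both. Hk1, the constitutive hexokinase, was at 10.8 FPKM with IgG and 4.24 FPKM with anti-nucleolin, the ratio of equal reads that Gpi1, Aldoa, Tpi1, Pgk1 and Pgam1 also had. Ldhb, the subunit of the lactate dehydrogenase of heart and other oxidative tissues, was at 38.4 FPKM with IgG and 0 with anti-nucleolin, while Ldha was listed in both. Pfkm, the muscle form of the enzyme that commits glucose to glycolysis, was at 16.1 FPKM with IgG and 0 with anti-nucleolin, whereas Pfkp, the platelet form, was at 0 and 13.0 FPKM. The list's median difference was -1.17.

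Of 21 genes for transport of glucose and lactate and for control of the pathway, 8 were measured, 2 higher with anti-nucleolin and 5 lower, with a median of -2.58. Slc2a1, the main glucose transporter of activated macrophages, stood at 17.8 and 14.0 FPKM and, like Ldha, matched 1 IgG read to 2 nucleolin reads. Slc16a3, a lactate exporter, was at 55.6 and 15.3 FPKM, and Bsg, the chaperone of lactate transporters, at 141 FPKM with IgG and 0 with anti-nucleolin. Hif1a, which encodes the inducible subunit of HIF-1, was at 9.27 FPKM with IgG and 0 with anti-nucleolin. The epithelial and digestive markers above were on the same side as Bsg and Hif1a, and their part in these values was not tested.

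The pathways that branch from glycolysis had few measured genes. In the pentose phosphate pathway 4 of 11 genes were measured, 3 higher and 1 lower, with a median of 3.15. Pgls and Taldo1, a lactonase and transaldolase, were at 25.3 and 15.8 FPKM with anti-nucleolin and 0 with IgG, and Tkt, transketolase, stood at 41.9 and 16.4 FPKM, as equal reads give. Of 19 genes for gluconeogenesis and glycogen, 5 were measured, 3 higher and 2 lower (median 2.63) and 0 in both; Ugp2 and Pygb were at 17.2 and 11.6 FPKM with IgG only and Gyg at 11.0 FPKM with anti-nucleolin only.

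Pyruvate oxidation and the tricarboxylic acid cycle, which take up pyruvate in mitochondria, had most measured genes of the lists beyond glycolysis. Of 28 genes 18 were measured, 1 higher with anti-nucleolin and 15 lower, with a median of -4.10. They were listed in both libraries in 5 of 18 cases (27.8%, against 16.8% of all genes compared) and with IgG only in 12. Their summed FPKM was 542 with IgG, close to the 569 of the glycolytic genes, but 131 with anti-nucleolin, against 540.0. Idh3b, a subunit of isocitrate dehydrogenase, was at 64.1 and 0 FPKM. Mdh2, the mitochondrial malate dehydrogenase, stood at 39.1 and 31.3 FPKM and matched 1 IgG read to 2 nucleolin reads, as Ldha did. Irg1, which makes itaconate from a cycle intermediate in LPS-stimulated macrophages, was at 70.8 and 69.8 FPKM, and matched 2 IgG reads to 5 nucleolin reads. The difference between the lists was not tested. The epithelial and digestive markers were listed with IgG only, as these 12 genes were, and their part in this was not tested.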

How the data were processed

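RNA was measured in 2 libraries, IgG and nucleolin. Of the titles only that of the control names IgG; the nucleoplasmic one was assigned to anti-nucleolin, since the series' design text and the column symbol NCL point to it. The authors deposited FPKM values for 33529 transcript rows, 1 column per library, per the file headers. FastQC 0.10.0, Trimmomatic 0.32 and mm10 are named in the submitters' processing notes; the aligner, quantification, strand setting and rule for multiply aligned reads were not given in the sources used here. Rows without a symbol (56, with 0.0364% and 0.0794% of the FPKM) were left out, and rows were summed per symbol.

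A gene was compared at 1 FPKM or more in at least 1 library; a value below 0.1 FPKM was taken as at or near 0, and no fold is given against it. Differences are log2 ratios of FPKM with a pseudocount of 1, which understates changes of low genes. The worth of 1 read was inferred from the most frequent ratio of low genes (below 60 FPKM with IgG and 30 FPKM with anti-nucleolin). Ratios were matched to the smallest pair of at most 8 reads. Total reads are unknown, because transcript lengths were not used here. Intervals are Clopper-Pearson. Members, lists and alternatives were chosen with earlier results of these data known. The text names all members, up to 3 measured genes of highest mean FPKM of each list and the 5 genes nearest to Gapdh, of which 1 is not reported here; Hif1a, Hk1, Pfkp, the further markers and the sequences shown were chosen after their values were seen. Of the fibroblast markers, 2 of 4 (Col1a1 and Col3a1) were listed, with IgG only; the 1 erythroid marker analysed was not. The steps were run on simulated data as a check of the code. The simulated read pairs followed a fixed read worth exactly, and the simulated 4-fold changes were in deep libraries. Neither check shows how the steps perform on libraries as shallow as these. Python 3.11.15, pandas 2.3.3, numpy 2.4.6, scipy 1.17.1 and matplotlib 3.10.9 were used.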

Additional observations from a re-analysis of the deposited data

How the results depend on the processing

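The scaling decides the direction of most members. The members' median log2 ratio of -1.26 became 0.0051 after centring on all genes compared, 0.0151 with 1 read set equal in both libraries and 0.11 when scaled to the FPKM sum without Rn45s, Lars2, Mir6236 and Mir142b; it was -0.87 with a pseudocount of 10. Under the same 3 scalings, in that order, the genes at least 2-fold lower went from 6 to 0, 0 and 0, those higher from 1 to 2, 2 and 3, and the log2 ratio of the members' sum from -0.08 to 1.19, 1.27 and 1.36. A pseudocount of 10 left 2 lower genes, and the highest row per symbol gave 2 higher. Single genes turned as follows: Pgam1 from -1.26 to 0.0114, 0.0105 and 0.10, and Tpi1 from -1.26 to 0.0051, 0.0151 and 0.11; with 1 read set equal and with the sum scaling, Aldoa from -1.31 to 0.0192 and 0.11 and Pgk1 from -1.29 to 0.0108 and 0.10; with the sum scaling only, Gpi1 from -1.28 to 0.0915. Without Gapdh 0 members were higher and the sum's ratio was -0.81; without Aldoa it was 0.24. Gapdh stayed at least 2-fold higher and Hk2 on the lower side under every alternative run. Over all genes, the number higher fell from 1206 to 439 with a pseudocount of 10 and to 448 at a minimum of 10 FPKM. No paired analysis was possible because each group is 1 library and no test was made. Depth limits the ratios: at the smallest matching reads, the intervals of Gapdh, Ldha and Hk2 contain the ratio of equal reads; those of the 5 genes at that ratio contain it by construction, and Pkm has none.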
